A study of Homo sapiens with 6 samples.

Results

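Translation initiation factors are the proteins that load an mRNA and the initiator tRNA onto the small ribosomal subunit and find the start codon. Their genes were taken as every protein-coding row of the expression table whose symbol starts with EIF and a digit from 1 to 6, leaving out the EIF2AK kinases and EIF1AY, which gave 51 genes of 60623 rows. They were compared by RNA-seq in 3 control and 3 SRSF10 knockdown libraries of Huh7, an established human line derived from a liver carcinoma. The controls carry the genotype label WT and titles starting with NC, the knockdown titles start with SH, and the series title names a short hairpin against SRSF10, an SR-type splicing regulator. No label says whether the controls received a control hairpin, whether the cells were a pool or a clone, or whether replicates came from separate cultures. The spread behind each p-value is therefore that among the libraries, and it may be technical.

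Initiation runs through a fixed series of complexes. eIF2 carries the initiator tRNA and is recharged by the exchange factor eIF2B, and eIF1, eIF1A, eIF3 and eIF5 join it on the small subunit. The cap is bound by eIF4E, which with the scaffold eIF4G and the helicase eIF4A forms eIF4F, and the 4E-binding proteins compete with eIF4G for eIF4E. In liver tumours, as in other growing cells, these steps are known points of control by the kinase mTOR and by phosphorylation of eIF2.

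Values are FPKM, fragment counts scaled for gene length and library depth. Levels are set side by side between genes on that scale only, and are uncertain where a gene shares sequence with another. SRSF10 itself was at 18.6, 19.5 and 19.8 FPKM in control libraries, against 10.6, 10.8 and 10.6 FPKM in knockdown libraries, 44.8% lower by group means (limma adjusted p = 0.000166; exact two-sided permutation p = 0.1, the smallest that 3 against 3 can give). The smallest steps in the tables put the depth at 12710000 to 14380000 fragments per library. Of 12 liver and hepatoma markers only 3 had a mean of at least 1 FPKM, and APOA2, TTR and GPC3 were listed at 0 in every library. The 12 summed to 17.9 to 19.9 FPKM in the control and 18.1 to 19.3 FPKM in the knockdown libraries. EEF1G, a subunit of an elongation factor that cells need, is also listed at 0 in every library, so a 0 here need not mean absence. Why these genes are listed at 0 was not tested, nor whether the same lowers values above 0. With 3 of 12 at 1 FPKM or more, the markers do not bear out a liver line, nor do they settle the cell type. Of 4 epithelial markers 3 had a mean of at least 1 FPKM, as did 1 of 5 fibroblast, 2 of 4 endothelial and 1 of 5 blood markers. Summed fibroblast markers ran from 4.12 to 5.21 FPKM in the control and from 9.54 to 10.5 FPKM in the knockdown libraries, endothelial markers from 5.43 to 6.13 and from 9.46 to 10.8, and blood markers from 3.28 to 4.61 and from 1.63 to 2.57. With so few genes at that level, these sums do not measure cell types. The part of these shifts in the results below was not tested, and in bulk RNA fewer cells of a type and less RNA per cell cannot be told apart.

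Of the 51 genes, 48 reached 1 FPKM in at least 3 libraries and were tested, and all 48 did so in every library. Of these, 13 were lower and 2 higher in the knockdown and 33 did not pass (limma on log2(FPKM + 1), Benjamini-Hochberg adjusted p under 0.05 over 12191 genes). Among all tested genes 12.5% were lower and 12.6% higher. The 13 lower genes are 27.1% of the tested initiation factors and the 2 higher genes 4.17%. The median log2 fold change of the 48 was -0.08, against -0.01 over all tested genes, and the knockdown mean was under the control mean in 37 of them (77.1%) against 52.6% of all tested genes. All 3 knockdown values lay under all 3 control values for 23 of 48 genes, where the share over all tested genes was 22%, and above them for 3, where it was 20.6%. Initiation factors are abundant, and among the 6824 genes that passed a filter of 5 FPKM the share called lower was 19.3%, beside 13 of 40 initiation factors (32.5%).

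The count of lower genes dropped when a knockdown library was left out. Without knockdown replicate 1, 2 or 3 the lower initiation factors numbered 6, 5 and 5 of 48, beside 8.54%, 8.26% and 8.11% of all genes. With no filter on low values they numbered 8 of 50 (16%) beside 3.14% of all genes. Of the 15 genes called in either direction, 5 passed in every alternative run, EIF2S1, EIF2B1, EIF4G1, EIF4G3 and EIF5A2.

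**Figure D1:**
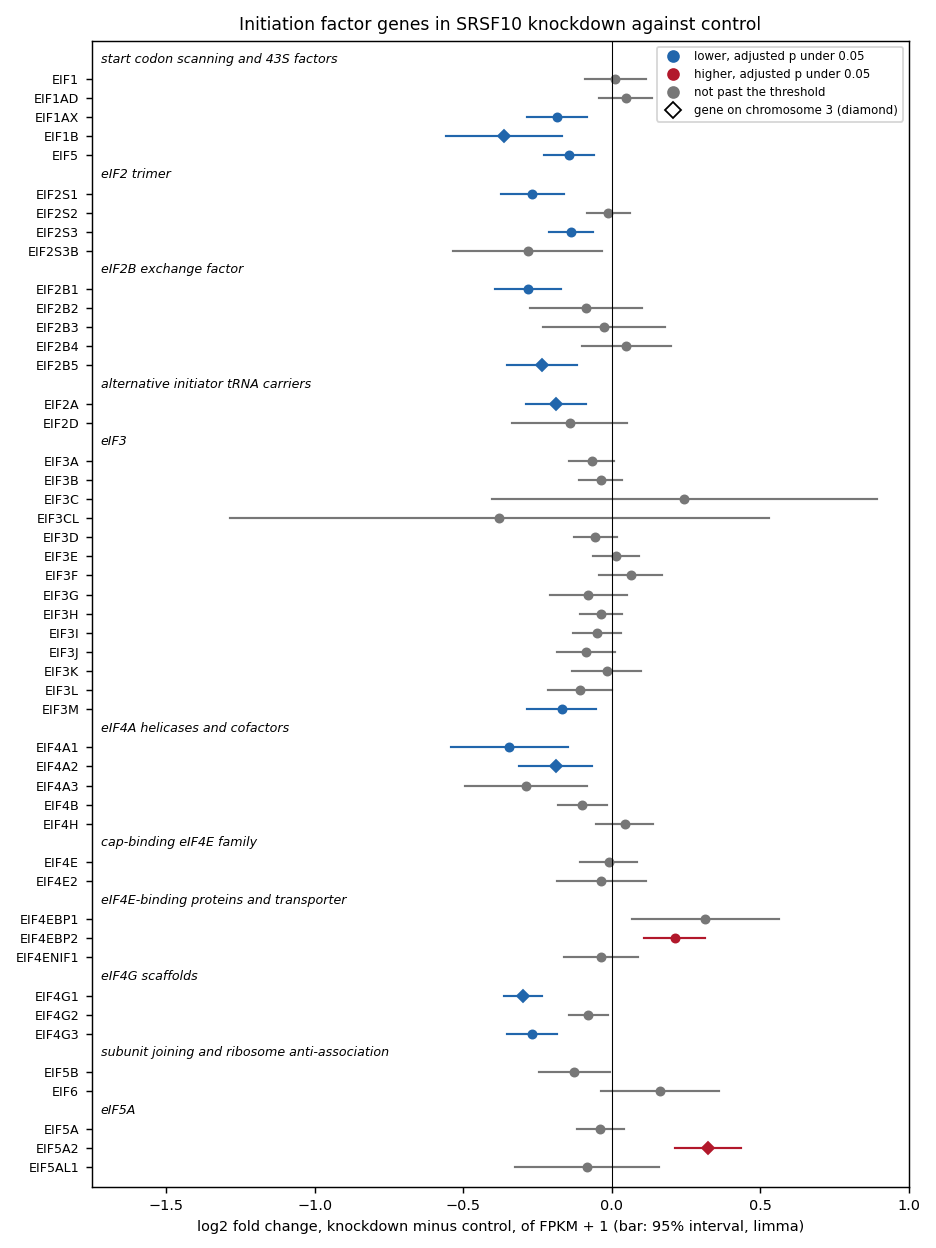
Log2 fold change of FPKM + 1, knockdown minus control, for the 48 tested initiation factor genes by role, with 95% intervals from limma; blue is lower and red higher at an adjusted p under 0.05, and diamonds lie on chromosome 3. The 13 lower genes sit in 7 of the 11 role groups, and most eIF3 genes lie close to 0.

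Among the factors that scan for the start codon, EIF1AX, EIF1B and EIF5 fell, and EIF1 did not pass the test. EIF1AD, placed in the same role group here, also did not pass, and no role in scanning is claimed for it. EIF1AX, on chromosome X, encodes eIF1A, which with eIF1 opens the small subunit for scanning. It was at 20.7, 22.7 and 21.6 FPKM in control libraries, against 18.6, 19.3 and 19.0 FPKM in knockdown libraries, with every knockdown library under every control. Its log2 fold change was -0.18 (SE of 0.042 and an adjusted p from limma of 0.0205). EIF5, the GTPase-activating protein of eIF2, was at 45.2, 47.0 and 48.1 FPKM and then at 42.4, 42.9 and 41.4 FPKM, 9.72% lower without overlap (limma adjusted p = 0.0261). Both calls were lost when any 1 knockdown library was left out, and that of EIF5 also without control replicate 2 or 3. The call of EIF5 was further lost with no filter, without the trend and with the replicate number as a block. It held in 6 of 14 alternatives.

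EIF1B, a close relative of the start-codon gatekeeper EIF1, fell further than EIF1AX and EIF5. Its controls read 20.1, 21.5 and 25.3 FPKM and its knockdown libraries 16.3, 17.7 and 17.2 FPKM, so the groups did not overlap, although control replicate 3 stood above the other controls. The mean was 23.6% lower, a log2 fold change of -0.36 (SE of 0.082 and an adjusted p from limma of 0.0196). The limma adjusted p was 0.0641 without knockdown replicate 1, 0.0583 without knockdown replicate 3 and 0.0674 with no filter. EIF1, the most abundant gene of the group, was at 58.3, 62.3 and 56.5 FPKM in control libraries, against 58.4, 60.8 and 59.3 FPKM in knockdown libraries. The interval of its log2 difference ran from -0.09 to 0.11. The ratio of EIF1 to EIF1B was 2.90, 2.90 and 2.23 in control libraries and 3.58, 3.44 and 3.46 in knockdown libraries (exact permutation p = 0.1, adjusted p = 0.225 over 9 pairs).

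In the eIF2 trimer the alpha and gamma subunit genes fell and the beta subunit gene did not pass. EIF2S1 encodes the alpha subunit, whose phosphorylation shuts down general initiation. It lies on chromosome 14 (67359997 to 67386516, GRCh38) and was at 22.1, 24.3 and 23.5 FPKM in control libraries, against 18.6, 19.4 and 19.5 FPKM in knockdown libraries. The groups were well separated, with a log2 fold change of -0.27 (SE of 0.044 and an adjusted p from limma of 0.00659). EIF2S3, the gamma subunit that binds GTP and tRNA, was at 58.6, 59.7 and 57.2 FPKM and then at 53.7, 52.5 and 53.2 FPKM, 9.23% lower (limma adjusted p = 0.0197). That call was lost in 7 of 14 alternatives, among them each fit without a knockdown library and those without control replicate 1 or 2. EIF2S2, the beta subunit, was the most abundant of the trimer at 102, 104 and 102 FPKM in control libraries, against 102, 103.3 and 99.8 FPKM in knockdown libraries, an overlap in which the interval of the log2 difference ran from -0.08 to 0.06. EIF2S3B, an autosomal copy of EIF2S3, was at 3.02 ± 0.52 and 2.29 ± 0.20 FPKM (SD, n = 3 per group) and did not pass (limma adjusted p = 0.0965).

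Of the 5 subunits of eIF2B, the factor that recharges eIF2 with GTP, the alpha and epsilon subunit genes fell and the others did not pass. EIF2B1, the regulatory alpha subunit (chromosome 12, 123620406 to 123633766), was at 24.7, 26.7 and 24.1 FPKM in control libraries, against 19.9, 20.6 and 21.0 FPKM in knockdown libraries. Its log2 fold change was -0.28 (SE of 0.047 and an adjusted p from limma of 0.00652), and 14.8% of its exon bases overlap DDX55 on the opposite strand. EIF2B5, the catalytic epsilon subunit, was at 10.2, 11.0 and 9.92 FPKM and then at 8.83, 8.35 and 8.75 FPKM, again without overlap (limma adjusted p = 0.0151, and 0.0572 without knockdown replicate 2). EIF2B2, EIF2B3 and EIF2B4 had means of 4.05 to 5.56 FPKM and overlapping groups. The summed FPKM of the 5 genes was 50.1 ± 1.8 in control libraries and 43.4 ± 1.1 in knockdown libraries, 13.3% lower (SD, n = 3 per group; exact permutation p = 0.1). EIF2A and EIF2D are carriers of initiator tRNA outside the eIF2 pathway. EIF2A fell from 17.8, 18.1 and 19.4 FPKM to 16.4, 15.9 and 15.9 FPKM, 12.9% by group means (limma adjusted p = 0.02). It did not pass without knockdown replicate 1, 2 or 3, nor with the replicate number as a block. EIF2D was at 4.57 ± 0.43 and 4.05 ± 0.38 FPKM (SD, n = 3 per group) and its groups overlapped.

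The large scaffold eIF3 bridges the small subunit and eIF4G. Of its 14 genes 1 fell (7.14%) and 0 rose, beside 12.5% lower and 12.6% higher among all tested genes. The median log2 fold change was -0.05, and the knockdown mean was under the control mean in 11. All 3 knockdown values lay under all 3 control values for 7 of the 14 (50%), beside 22% of all tested genes. EIF3M was the gene that fell, from 21.9, 24.5 and 23.2 FPKM to 21.3, 20.1 and 20.1 FPKM (log2 fold change -0.17, with SE 0.049; adjusted p from limma 0.0466). Knockdown replicate 1 was only just under the lowest control, and the call was lost in 10 of 14 alternatives, among them each fit without a knockdown library and those without control replicate 2 or 3. EIF3A, the largest subunit and the most abundant of the 14, was at 105, 109 and 111 FPKM in control libraries, against 102.8, 103.4 and 104 FPKM in knockdown libraries. These groups did not overlap either, but the difference of 4.65% did not pass (limma adjusted p = 0.171).

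EIF3B, EIF3D, EIF3E, EIF3F, EIF3G, EIF3H, EIF3I, EIF3J, EIF3K and EIF3L also did not pass, with log2 fold changes from -0.11 to 0.06. The 95% intervals of EIF3B, EIF3D, EIF3E and EIF3H stayed within -0.13 and 0.09. Levels in FPKM differed far more between subunits than between groups, from 106 FPKM for EIF3A and 77.0 for EIF3E to 7.24 for EIF3F, as means over 6 libraries. These levels are per base and depend on the exon length used. The annotated exon bases are 7101 for EIF3A, 6005 for EIF3E and 9431 for EIF3F. The values therefore do not give the relative numbers of mRNA molecules. The sum over the 14 genes was 591 ± 9.6 FPKM in control libraries, against 571 ± 2.8 FPKM in knockdown libraries, 3.35% lower (SD, n = 3 per group; exact permutation p = 0.1).

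**Figure D2:**
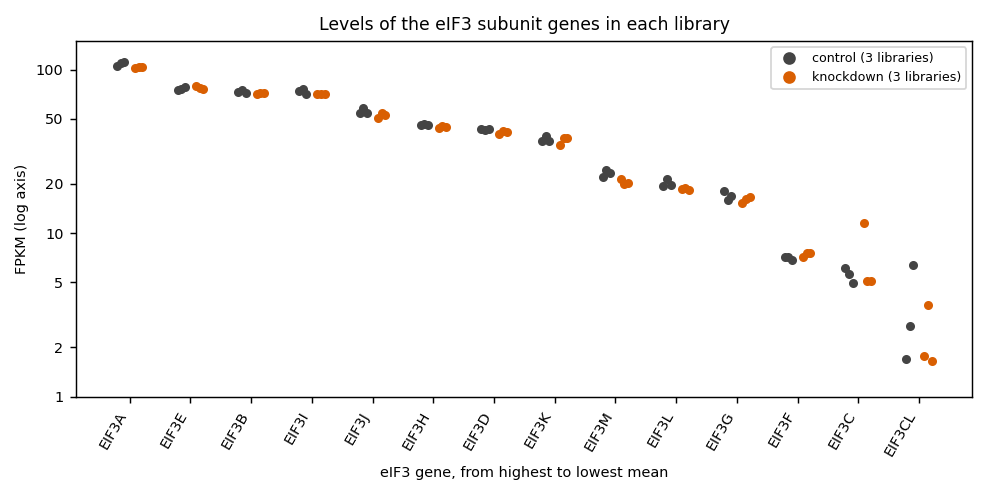
FPKM of the 14 eIF3 subunit genes in each of the 3 control (grey) and 3 knockdown (orange) libraries, on a log axis, ordered by mean level. Most genes have tight clusters of points, while EIF3C and EIF3CL scatter widely, with knockdown replicate 1 at 11.5 FPKM for EIF3C and control replicate 3 at 6.38 FPKM for EIF3CL.

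EIF3C and EIF3CL, neighbouring copies on chromosome 16, were the least reproducible of the eIF3 genes. EIF3C was at 6.14, 5.60 and 4.93 FPKM in control libraries, against 11.5, 5.09 and 5.09 FPKM in knockdown libraries, and EIF3CL at 1.71, 2.72 and 6.38 FPKM and at 1.78, 3.61 and 1.65 FPKM. In GENCODE release 29, 97.2% of the distinct 50-base sequences in EIF3CL transcripts also occur in another gene, and 42.3% of those of EIF3C occur in EIF3CL. The values of the pair are therefore uncertain. Their sum was 9.16 ± 1.9 FPKM in control libraries, against 9.57 ± 3.4 FPKM in knockdown libraries (SD, n = 3 per group).

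Of the 3 eIF4G scaffold genes 2 fell and the other missed the threshold. EIF4G1, which holds eIF4E, eIF4A and the poly(A)-binding protein together, lies on chromosome 3 (184314495 to 184335358). It was at 164, 164 and 163 FPKM in control libraries, against 133, 132 and 134 FPKM in knockdown libraries, 2 tight clusters 18.7% apart. Its log2 fold change was -0.30 (SE of 0.027 and an adjusted p from limma of 0.000867), the smallest adjusted p of the 48. EIF4G3, a paralog on chromosome 1 (20806292 to 21176888), was at 15.8, 15.2 and 15.7 FPKM and then at 12.6, 12.8 and 12.9 FPKM. It fell by a similar 18% (log2 fold change -0.27, with SE 0.036; adjusted p from limma 0.00309).

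EIF4G2, known as DAP5, lacks the eIF4E-binding part and serves cap-independent initiation. It was the most abundant initiation factor gene, at 213, 213 and 217 FPKM in control libraries, against 201, 205 and 202 FPKM in knockdown libraries, without overlap but short of the threshold (5.32% lower, limma adjusted p = 0.0836). The ratio of EIF4G1 to EIF4G2 was 0.770, 0.771 and 0.751 in control libraries and 0.663, 0.643 and 0.661 in knockdown libraries (exact permutation p = 0.1, adjusted p = 0.225 over 9 pairs). The ratio of EIF4G1 to EIF4G3 was 10.5 ± 0.25 and 10.4 ± 0.17 (SD, n = 3 per group), with overlapping groups (exact permutation p = 0.5). The 3 scaffolds summed to 393 ± 1.9 FPKM in control libraries, against 348 ± 0.91 FPKM in knockdown libraries, 11.4% lower (SD, n = 3 per group; exact permutation p = 0.1).

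**Figure D3:**
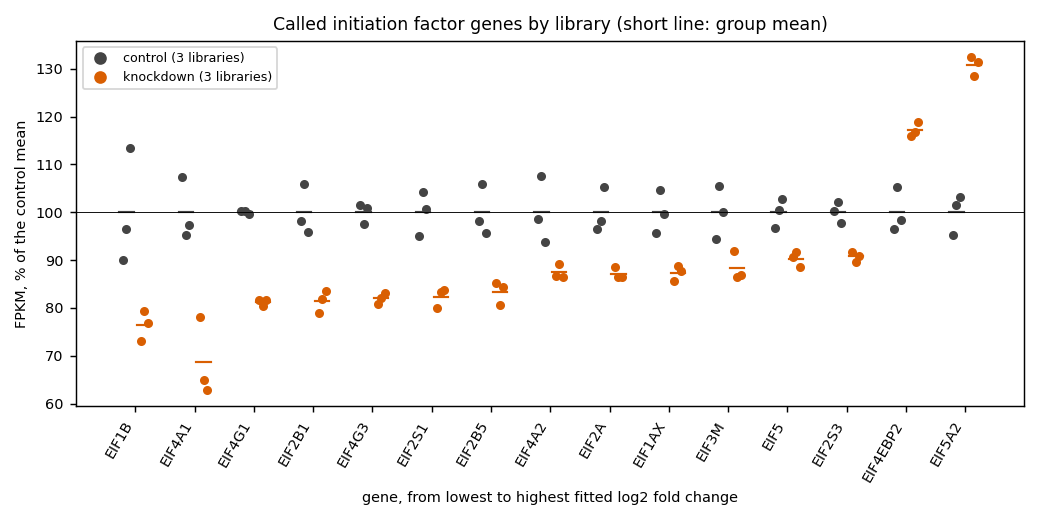
FPKM of the 15 called initiation factor genes in each library, as a percentage of the gene's control mean, with short lines at group means. The knockdown libraries (orange) of 13 genes lie below all controls (grey), tightly for EIF4G1 and loosely for EIF4A1, and those of EIF4EBP2 and EIF5A2 lie above.

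EIF4A1 and EIF4A2, the RNA helicases that unwind mRNA near the cap, both fell. EIF4A2, on chromosome 3 (186783205 to 186789900), was at 71.4, 77.8 and 68.0 FPKM in control libraries, against 62.8, 64.6 and 62.6 FPKM in knockdown libraries, 12.5% lower (limma adjusted p = 0.0379). That call was lost in 7 of 14 alternatives, among them each fit without a knockdown library and those without control replicate 1 or 2. EIF4A1 was listed at only 2.24, 1.98 and 2.03 FPKM in control libraries, against 1.63, 1.35 and 1.31 FPKM in knockdown libraries, an estimated 89 to 171 fragments per library. Its mean was 31.3% lower (log2 fold change -0.34, with SE 0.083; adjusted p from limma 0.0244). The call was lost without control replicate 1, without knockdown replicate 2 or 3, and with no filter.

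Of the distinct 50-base sequences of EIF4A1, 41.0% also occur in other genes. The read-through gene SENP3-EIF4A1 covers 29.8% of its exon bases and AC016876.2 41.1%, both on the same strand, and their own means were 0.148 and 0.0110 FPKM. The level of EIF4A1, and its ratio of 0.0289 ± 0.0030 to EIF4A2 in the controls (SD, n = 3), are therefore uncertain. In the knockdown that ratio was 0.0226 ± 0.0028, and the groups overlapped (exact permutation p = 0.2).

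EIF4A3, a helicase of the exon junction complex rather than of initiation, missed the threshold narrowly at 18.3, 20.9 and 17.7 FPKM against 13.6, 16.3 and 16.2 FPKM (limma adjusted p = 0.05002). The helicase cofactor EIF4B did not pass at 113 ± 3.4 and 105 ± 2.3 FPKM (SD, n = 3 per group; limma adjusted p = 0.0835). EIF4H, the other cofactor, was at 129, 131 and 123 FPKM in control libraries, against 126, 135 and 134 FPKM in knockdown libraries, with overlapping groups.

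**Figure D4:**
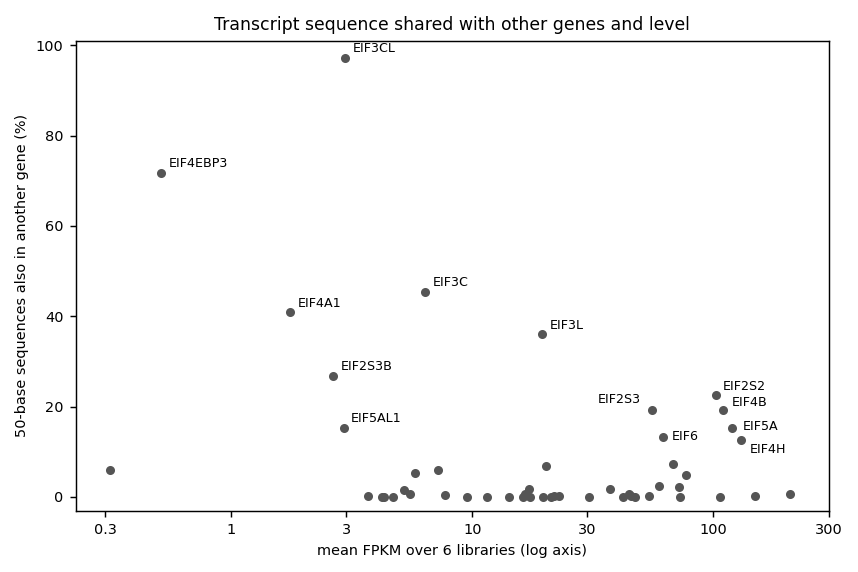
Share of each initiation factor gene's distinct 50-base transcript sequences that also occur in another gene (GENCODE release 29), against mean FPKM over 6 libraries on a log axis, which leaves out EIF4E1B at 0. Labelled genes share at least 10%, and EIF3CL, EIF4EBP3, EIF3C and EIF4A1 combine a high share with a low level.

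Such sharing reached 10% or more in 13 of the 51 genes, as the plot of shared sequence against level shows. Reads of those genes can be split or dropped by the authors' counting, whose treatment of them is not given in the sources used here. Among the 36 tested genes under 10%, 11 were lower and 2 higher. Exons overlap another annotated gene in 28 of the 51, by over 10% of exon bases in 10 of them. As no strand setting is known, reads from opposite strands there cannot be told apart.

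No gene of the cap-binding eIF4E family passed. EIF4E, the cap-binding protein itself, was at 5.76, 5.76 and 5.83 FPKM in control libraries, against 5.83, 5.74 and 5.64 FPKM in knockdown libraries. These values overlap within a narrow range, and the interval of the log2 difference ran from -0.11 to 0.09. Its processed pseudogene EIF4EP2 was listed at 25.0, 23.5 and 24.0 FPKM and at 22.8, 27.3 and 25.4 FPKM, above its parent in every library. That holds per base, since EIF4EP2 has 654 exon bases and EIF4E 14067, with an estimated 1013 to 1165 fragments per library for EIF4E. Of the 50-base sequences of EIF4E, 3.50% occur in EIF4EP2. The level of EIF4E and ratios to it are therefore uncertain. EIF4E2, a cap-binding relative used in repression, was at 8.20, 8.29 and 7.05 FPKM and at 7.68, 7.66 and 7.50 FPKM. EIF4E3 stayed under the filter at 0.326 ± 0.054 and 0.305 ± 0.013 FPKM (SD, n = 3 per group), and EIF4E1B was listed at 0 in every library.

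Among the proteins that hold eIF4E, EIF4EBP2 rose. This translational repressor, released from eIF4E when mTOR phosphorylates it, lies on chromosome 10 (70404379 to 70428618). It was at 10.2, 11.1 and 10.4 FPKM in control libraries, against 12.2, 12.3 and 12.6 FPKM in knockdown libraries, 17.2% higher without overlap (log2 fold change 0.21, with SE 0.043; adjusted p from limma 0.014). Without knockdown replicate 3 the adjusted p was 0.0556.

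EIF4EBP1, its more abundant paralog on chromosome 8, was at 31.8, 24.4 and 24.9 FPKM in control libraries, against 32.1, 32.7 and 36.4 FPKM in knockdown libraries. Control replicate 1 stood far above the other controls and just under the lowest knockdown library, and the gene did not pass (log2 fold change 0.32, with SE 0.10; adjusted p from limma 0.0675). Without that control the log2 fold change was 0.43 and the adjusted p 0.00947, and with a filter of 5 FPKM the adjusted p was 0.0391. These were the only 2 of 14 alternatives in which EIF4EBP1 passed. Its limma adjusted p was 0.166 without control replicate 2, 0.159 without control replicate 3 and 0.192 with no filter. The ratio of EIF4EBP1 to EIF4E was 5.53, 4.23 and 4.27 in control libraries and 5.50, 5.70 and 6.45 in knockdown libraries, which overlap (exact permutation p = 0.2) and carry the uncertainty in the level of EIF4E. EIF4EBP3 was under the filter with an estimated 1 to 7 fragments per library, and EIF4ENIF1, which carries eIF4E into the nucleus and to P-bodies, did not pass at 3.75 ± 0.16 and 3.62 ± 0.091 FPKM (SD, n = 3 per group).

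For the last steps, EIF5B, the GTPase that joins the large subunit, was at 45.9, 50.5 and 51.4 FPKM and then at 46.5, 44.8 and 43.8 FPKM and did not pass (limma adjusted p = 0.117). EIF6, which keeps free large subunits apart from small ones, was at 58.4, 60.4 and 55.4 FPKM in control libraries, against 56.7, 69.9 and 69.4 FPKM in knockdown libraries. Knockdown replicate 1 lay among the controls and the other knockdown libraries far above them. The adjusted p was 0.21 with that library and 0.0201 without it. EIF6 passed in only that 1 of 14 alternatives, and its limma adjusted p reached 0.455 among the others.

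EIF5A2 rose and its paralog EIF5A did not pass. Both encode the hypusine-bearing factor that helps ribosomes through difficult stretches, and EIF5A2 is the form known for amplification and overexpression in tumours. EIF5A2, on chromosome 3 (170888415 to 170908693), was at 4.30, 4.59 and 4.66 FPKM in control libraries, against 5.98, 5.81 and 5.93 FPKM in knockdown libraries, 30.8% higher with a wide gap between the groups (log2 fold change 0.32, with SE 0.047; adjusted p from limma 0.00408). EIF5A was at 119.7, 124 and 118 FPKM in control libraries, against 115, 119 and 118 FPKM in knockdown libraries, which overlap. The ratio of EIF5A to EIF5A2 was 27.8, 27.1 and 25.3 in control libraries and 19.2, 20.5 and 19.9 in knockdown libraries (exact permutation p = 0.1, adjusted p = 0.225 over 9 pairs). EIF5AL1, a further copy, was at 3.04 ± 0.30 and 2.82 ± 0.44 FPKM (SD, n = 3 per group), and it shares 11.6% of its 50-base sequences with EIF5A.

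Of the 9 pairs compared by ratio, a quantity in which library depth cancels, 4 had groups that did not overlap: EIF4G1 to EIF4G2, EIF5A to EIF5A2, EIF1 to EIF1B, and EIF2S3 to EIF2S1. The last was 2.51 ± 0.12 in control libraries and 2.77 ± 0.097 in knockdown libraries (SD, n = 3 per group). None could reach an exact permutation p under 0.1. The remaining pairs, EIF4E to EIF4E2 and EIF4EBP1 to EIF4EBP2 among them, had overlapping groups. The sum over all 51 genes was 2036 ± 33 FPKM in control libraries, against 1931 ± 23 FPKM in knockdown libraries, 5.13% lower (SD, n = 3 per group; exact permutation p = 0.1).

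Of the 13 lower genes 5 lie on chromosome 3. Of the 6 tested members there, EIF1B, EIF2A, EIF2B5, EIF4A2 and EIF4G1 fell and EIF5A2 rose. Among all 718 tested genes of that chromosome 43.9% were lower and 4.74% higher, with a median log2 fold change of -0.19. The knockdown libraries lay below all controls for those 5 members and above them for EIF5A2, and over the chromosome for 56.1% and 7.24% of genes. The fold changes of these 5 ran from -0.36 to -0.19, and EIF5A2 lay on the other side at 0.32. On the other chromosomes 8 of 42 tested members were lower (19.0%) and 1 was higher, where 10.5% of 11473 genes were lower and 13.1% higher. The 8 are EIF1AX, EIF5, EIF2S1, EIF2S3, EIF2B1, EIF3M, EIF4A1 and EIF4G3. The part of the chromosome in the lower values of those 5 genes was not tested.

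Many mRNAs of the translation machinery begin with a C and a run of pyrimidines, the TOP element through which mTOR and LARP1 control their translation. RefSeq start sites (GRCh38.p14) were found for 43 of the 51 genes, with 250 bases before and 50 after each start. A start was counted where the first base is C and the next 4 are each C or T, on the gene's own strand. This held for 10 of the 43 genes (23.3%), for 4.07% of all 35116 start windows and for 7.55% of the 8559 tested genes with a window. The sequences of 4 genes that fell and 3 that did not pass are shown to let the run be read in both kinds of gene. The rule chose them for that run, and the other genes with a window have no such start. Each has 15 bases before the start in lower case, then the pyrimidine run in capitals and the bases after it.
EIF2A (fell; chr3:150546772-150546801, plus strand): tcacccgagcggtttCTCTTTCCgggacaa
EIF2S3 (fell; chrX:24054941-24054970, plus strand): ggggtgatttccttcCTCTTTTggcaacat
EIF3M (fell; chr11:32583816-32583845, plus strand): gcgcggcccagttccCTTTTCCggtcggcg
EIF4A2 (fell; chr3:186783562-186783591, plus strand): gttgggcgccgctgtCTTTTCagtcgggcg
EIF3D (not past the threshold; chr22:36529152-36529181, minus strand): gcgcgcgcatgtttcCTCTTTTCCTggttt
EIF3F (not past the threshold; chr11:7987322-7987351, plus strand): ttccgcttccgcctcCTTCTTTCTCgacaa
EIF4B (not past the threshold; chr12:53006441-53006470, plus strand): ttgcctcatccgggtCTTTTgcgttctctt

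The remaining genes with such a start were EIF2D, EIF2S3B and EIF3K, none of which passed. Of the 10 genes with a TOP-like start 4 were lower, and of the 30 tested genes with a window and no such start 9 were. No window was found for EIF2S2, EIF3A, EIF3CL, EIF3E, EIF3G, EIF3H, EIF3L and EIF4EBP1. None of these passed, so the genes left out of this comparison are all ones that were not called. Over all tested genes with a window the shares called lower were 16.4% with such a start and 13.7% without. Of the 4, EIF2A and EIF4A2 lie on chromosome 3, where 43.9% of tested genes were lower. A start of this kind is a description of letters and says nothing of how these mRNAs were translated.

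The same windows were searched for CACGTG, which reads the same on both strands and is the E-box bound by MYC and by factors of the MITF and TFE family. It was found for 11 of the 43 genes (25.6%), in 7.26% of all windows and for 12.9% of the tested genes with a window. The genes are EIF1B and EIF4G1, which fell, EIF5A2, which rose, EIF2B3, EIF3F, EIF3K, EIF4A3, EIF4B, EIF4E and EIF4H, which did not pass, and EIF4EBP3, which was not tested. EIF4G1 and EIF5A2, which went in opposite directions, each hold 2 matches, as does EIF4E, which did not pass. The matches of the 3 called genes are shown with the motif in capitals. Positions count from the annotated start, negative before it.
EIF4G1 (motif at -144; chr3:184314450-184314479, plus strand): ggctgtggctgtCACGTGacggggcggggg
EIF4G1 (motif at -67; chr3:184314527-184314556, plus strand): ccctgcgccggtCACGTGggggcgccggct
EIF1B (motif at -54; chr3:40309641-40309670, plus strand): gcgcgggacggtCACGTGggaggggccgcg
EIF5A2 (motif at -162; chr3:170908782-170908811, minus strand): cagggcgctcttCACGTGactgggcggagc
EIF5A2 (motif at -187; chr3:170908807-170908836, minus strand): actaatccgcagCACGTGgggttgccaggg
A match is a description of these letters and not evidence of binding.

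Lists of genes that regulate or follow initiation were read in the same fit. Their counts stand beside 12.5% lower and 12.6% higher among all tested genes. Only the termination and recycling list, at 25% lower, lay above the first share. Only the list around eIF2 phosphorylation, at 14.3% higher, lay above the second. Each of these rests on 2 genes. Among 12 genes of mTOR and MNK control of cap binding, all tested, 1 rose and 1 fell. MTOR, the kinase that frees eIF4E from its binding proteins, fell from 16.1, 16.2 and 14.8 FPKM to 11.3, 11.7 and 11.3 FPKM, 27.4% by group means (log2 fold change -0.43, with SE 0.046; adjusted p from limma 0.0014). MKNK2, a kinase that phosphorylates eIF4E while it is held on eIF4G, rose from 12.1, 10.6 and 12.2 FPKM to 18.1, 16.2 and 18.5 FPKM, 51.3% higher (log2 fold change 0.56, with SE 0.070; adjusted p from limma 0.00246). Neither pair of groups overlapped, and the median log2 fold change of the 12 was -0.05.

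Among 14 genes around eIF2 phosphorylation 2 rose and 1 fell, with a median of -0.02. EIF2AK3, the endoplasmic reticulum stress kinase PERK, rose from 3.66 ± 0.13 to 4.61 ± 0.15 FPKM (SD, n = 3 per group; limma adjusted p = 0.0105). The heme-regulated kinase EIF2AK1 rose from 44.1 ± 1.1 to 48.6 ± 1.3 FPKM (SD, n = 3 per group; limma adjusted p = 0.0315), a call lost in 9 of 14 alternatives, among them each fit without a knockdown library and those without control replicate 1 or 2. PPP1R15B, the constitutive subunit that directs phosphatase to eIF2 alpha, fell from 27.3, 28.9 and 26.9 FPKM to 22.0, 23.4 and 22.7 FPKM (limma adjusted p = 0.00481). Its stress-induced counterpart PPP1R15A was at 37.7 ± 2.3 and 33.8 ± 1.2 FPKM (SD, n = 3 per group; limma adjusted p = 0.0735). ATF4, whose translation rises when eIF2 alpha is phosphorylated, was at 56.5 ± 2.1 and 62.0 ± 2.9 FPKM (SD, n = 3 per group; limma adjusted p = 0.0745). Neither passed, and in both genes the groups did not overlap.

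Downstream of initiation, 1 of 8 tested genes in the elongation list fell and 0 rose. That was EEF2K, the kinase that inhibits elongation factor eEF2, from 9.49 ± 0.37 to 7.68 ± 0.30 FPKM (SD, n = 3 per group; limma adjusted p = 0.00771). In termination and recycling 2 of 8 fell and 0 rose, the recycling factor DENR from 63.0 ± 3.1 to 54.5 ± 0.72 FPKM and the release factor GSPT1 from 51.3 ± 2.4 to 46.2 ± 1.2 FPKM (SD, n = 3 per group; limma adjusted p = 0.0141 and 0.0481). The call of DENR was lost without knockdown replicate 1 or 2, and that of GSPT1 in 11 of 14 alternatives, among them each fit without a knockdown library and those without control replicate 2 or 3. Among poly(A)-binding and other regulators 1 of 10 tested fell, the helicase DDX3X, from 80.9 ± 1.8 to 72.1 ± 0.60 FPKM (SD, n = 3 per group; limma adjusted p = 0.01). PABPC1, the poly(A)-binding partner of eIF4G, was at 627 ± 13 and 631 ± 5.7 FPKM (SD, n = 3 per group) and PDCD4, an inhibitor of eIF4A, at 10.1 ± 1.2 and 10.4 ± 0.096 FPKM (SD, n = 3 per group). Neither passed, and their groups overlapped. The 2 mitochondrial initiation factor genes did not pass.

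**Figure D5:**
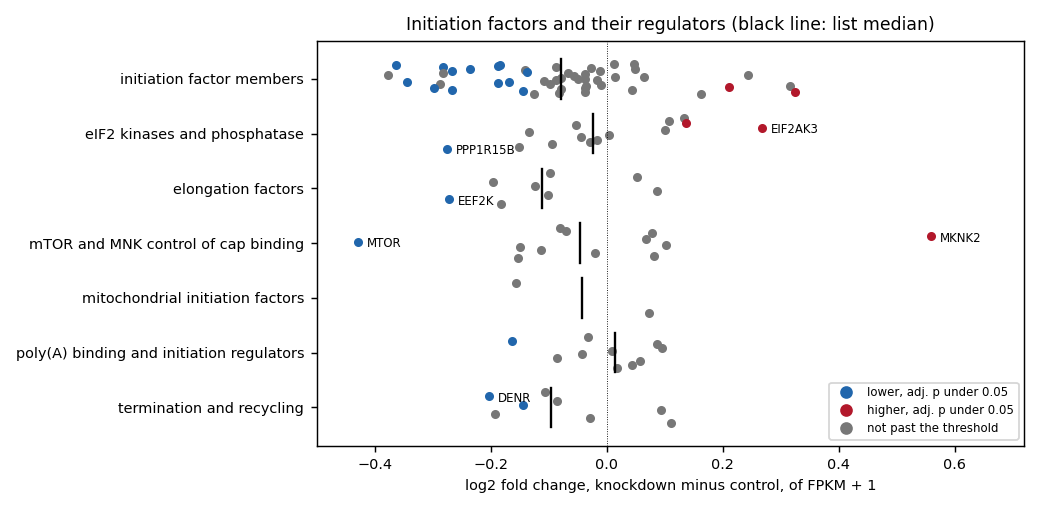
Log2 fold change of FPKM + 1, knockdown minus control, for the 48 tested initiation factor genes and 6 lists of related genes, with the list median as a black line; blue and red mark genes lower and higher at an adjusted p under 0.05. MTOR at -0.43 and MKNK2 at 0.56 lie furthest out, and the list medians run from -0.11 for elongation factors to 0.01 for poly(A)-binding and other regulators.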

How the data were processed

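RNA-seq values of 6 libraries were used. The authors deposited FPKM values in 1 joint table and in 6 sample files identical to it. FastQC 0.11.9, Trim Galore 0.6.5-1 and the build GRCh38 are named per the submitters' processing notes. The aligner, counter, annotation release and strand setting were not given in the sources used here. FPKM are shares of a total, so abundant transcripts affect all others. With no counts, limma 3.58.1 (R 4.3.3) was fitted on log2(FPKM + 1), with a trend on mean expression, over 12191 genes at 1 FPKM or more in at least 3 libraries, with Benjamini-Hochberg adjustment. The pseudocount of 1 understates changes of low genes. Summed levels and ratios of genes were compared by exact two-sided permutation. The limma step was tested on simulated data, with log2 changes larger in size than those of the called members. That test therefore does not cover changes of their size. Positions, exon overlaps and 50-base sequences come from GENCODE release 29 (all 51 members found), and start windows from RefSeq. Depth was estimated as the total at which low FPKM times exon length gave whole fragments, within 0.05 for 86.1% to 86.9% of values of up to 6.5 fragments. Each called gene, the most abundant gene of each role and the genes paired in ratios are given by library, and of the related lists up to 3 genes in each direction and 6 preset genes. Members and lists were chosen with earlier results of these data known. Alternatives were another filter, pseudocount, scaling or variance model, a replicate block, and leaving out libraries. Members on chromosome 3, or those with shared sequence, were also left out of the count, with no new fit. The count without shared sequence was chosen after seeing the data. Python 3.11.15 was used.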

Additional observations from a re-analysis of the deposited data

How the results depend on the processing

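The reported comparison called 13 initiation factor genes lower and 2 higher. With no filter on low values 8 were lower. Counting only the members outside chromosome 3, with no new fit, 8 were lower and 1 higher. Leaving out each library in turn gave 5 to 12 lower and 1 to 3 higher. The cause of the drop without a knockdown library was not tested, but fewer samples entered those fits. Other scalings, a pseudocount of 0.1, a 5 FPKM filter and a fit without the trend gave 9 to 14 lower and 2 or 3 higher. None of the 15 called genes changed sign in any alternative, and 161 of their 209 values passed the threshold. SRSF10 passed in every alternative. Same-numbered libraries of the groups showed little shared deviation (r = 0.016, 0.057 and -0.071 across genes), and r for differently numbered libraries ran from -0.149 to 0.129. With deviations from means of 3 libraries, this check cannot show whether libraries were paired or shared a batch. With the replicate number as a block 10 genes were lower and 2 higher. EIF4A1 and EIF4EBP3 are limited by few fragments.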

Other observations

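The table also lists 72 pseudogene rows with EIF symbols, which the comparison leaves out. Of these, 31 were listed at 0 in every library, 11 passed the filter, and none passed the test (limma, 0 at an adjusted p under 0.05 and 1 at an unadjusted p under 0.05). EIF4EP2, given above with EIF4E, was not the only one above its parent in FPKM. EIF4A1P10 was at 12.5, 12.9 and 11.8 FPKM in control libraries, against 10.6, 13.0 and 12.9 FPKM in knockdown libraries, while EIF4A1 stayed under 3 FPKM. The groups overlapped. EEF1G, an elongation factor subunit singled out after its values were seen, was listed at 0 in every library.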
